A study of Homo sapiens with 6 samples.

Results

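Type VI collagen, type IX collagen, and the fibril-associated collagens with interrupted triple helices (FACITs) were examined gene by gene in the RNA-Seq counts of TC28a2 cells. The members were the 10 genes named *COL6A1*, *COL6A2*, *COL6A3*, *COL9A1*, *COL9A2*, *COL9A3*, *COL12A1*, *COL14A1*, *COL16A1*, and *COL21A1*, taken by their symbols from the 60623 genes of the table. All libraries came from TC28a2, 1 immortalized line of human chondrocytes. The cells received 2 μM mocetinostat, an inhibitor of class I histone deacetylases, or only its solvent DMSO, and RNA was taken after 24 hours. Each condition had 3 samples, which a figure legend of the study describes as independent experiments. The question was which genes the compound raised or lowered.

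Type VI collagen is the microfibrillar collagen of the pericellular matrix that surrounds each chondrocyte, and its common form is assembled from 1 α1, 1 α2, and 1 α3 chain. Type IX collagen is a cartilage FACIT built from the products of *COL9A1*, *COL9A2*, and *COL9A3*, and it sits on the surface of fibrils made of type II collagen. Types XII, XIV, XVI, and XXI are homotrimers of the same group, of which types XII and XIV bind fibrils rich in type I collagen. Type VI and IX molecules need several chains, so that the relative amounts of chain RNAs were followed beside the amount of each.

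Promoter sequences are shown for the type VI genes *COL6A2* and *COL6A3* and for *COL12A1*, the most abundant FACIT gene. These genes were picked because the results turn on the relative amounts of the type VI chains and on the level of *COL12A1*. They are from RefSeq on GRCh38.p14 and are written 5′ to 3′ on the gene's strand. Their ends need not match the gene positions given below, which are from another annotation. The GC box (GGGCGG on either strand) and the TATA box (TATAAA on either strand) are in capitals. For *COL6A3*, only the stretch outside annotated untranslated regions is shown. RefSeq promoters were matched for 7 of the 10 members. None was matched for *COL6A1*, *COL9A3*, and *COL14A1*, so the type VI promoters cannot be compared with that of *COL6A1*.
COL6A2, chr21:46097862-46098111, plus strand: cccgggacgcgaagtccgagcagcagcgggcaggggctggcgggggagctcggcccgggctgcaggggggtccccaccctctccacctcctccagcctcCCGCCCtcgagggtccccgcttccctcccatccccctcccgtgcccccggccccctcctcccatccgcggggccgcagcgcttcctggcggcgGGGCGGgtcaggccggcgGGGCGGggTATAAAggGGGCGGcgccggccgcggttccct
COL6A3, chr2:237414208-237414414, minus strand: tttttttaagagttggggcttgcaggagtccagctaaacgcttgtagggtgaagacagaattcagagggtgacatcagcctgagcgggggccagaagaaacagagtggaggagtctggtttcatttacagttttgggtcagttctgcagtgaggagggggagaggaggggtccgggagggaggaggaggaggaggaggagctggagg
COL12A1, chr6:75206054-75206303, minus strand: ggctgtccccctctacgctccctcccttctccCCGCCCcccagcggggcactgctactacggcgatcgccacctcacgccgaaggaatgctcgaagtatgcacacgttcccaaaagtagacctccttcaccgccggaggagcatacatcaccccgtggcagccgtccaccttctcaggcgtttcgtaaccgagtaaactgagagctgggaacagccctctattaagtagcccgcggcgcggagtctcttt
In its window of 250 bases, *COL6A2* held 4 GC boxes and 1 TATA box, with a GC content of 79.6% and 28 CpG dinucleotides. For *COL6A3* and *COL12A1*, most of the window lies inside the gene by the positions given below. The corresponding window of *COL6A3* held 0 GC boxes, 0 TATA boxes, and 3 CpG dinucleotides at a GC content of 56.0%. The *COL12A1* window held 1 GC box and 21 CpG dinucleotides. Among 35116 promoters of the same length, 42.6% held a GC box and 10.7% a TATA box, and the median number of CpG dinucleotides was 11. The 2 motifs have no letters in common and cannot overlap, and a match describes letters only.

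Total counts ranged from 4873426 to 11031132 in DMSO-treated and from 1619344 to 5089542 in mocetinostat-treated samples, and low genes were therefore counted less exactly after treatment. Levels are given as CPM, which are read counts relative to the TMM-adjusted library total, and values per sample follow the order of replicates 1, 2, and 3. DMSO replicate 1 stood apart for the type VI genes, which held 0.620% of its counts against 0.762% and 0.756% in DMSO replicates 2 and 3, and results that rest on it are given with and without it. Of 14 chondrocyte marker genes, 8 were tested and 6 were called upregulated. Among these, *COMP*, *SOX5*, *COL2A1*, and *MATN3* passed the expression filter through the mocetinostat-treated samples, so their upward calls test nothing. The summed level of the 14 was 117 to 140 CPM with DMSO and 262 to 304 CPM with mocetinostat, and *CNMD* was at 0 counts in all 6 libraries. Most of each sum was *SOX9*, which was not called and had means of 106 and 178 CPM. The fibroblast list of 8 genes summed to 4623 to 5588 CPM with DMSO and 4295 to 4667 CPM with mocetinostat, with 3 of 7 tested genes called upregulated and 1 downregulated. Most of these sums was *COL1A1*, with means of 4508 and 3901 CPM. The 3 upregulated genes, *COL1A2*, *LUM*, and *PDGFRA*, also passed the filter through the mocetinostat-treated samples. Markers of other cell types were low. Called upregulated were 3 of 4 tested endothelial, 2 of 2 tested epithelial, and 1 of 1 tested leukocyte genes. Over all genes tested, 20.2% were called upregulated and 8.18% downregulated. These called markers had mean levels from 0.256 (*CDH1*) to 1.51 (*VWF*) CPM with DMSO. They passed the expression filter through the mocetinostat-treated samples, so their upward calls test nothing. *CDH5* was not called and went from 3.02 to 3.09 CPM, and the untested *PTPRC* went from 0.680 to 0.607 CPM. Summed levels with DMSO and mocetinostat were 5.03 to 7.64 and 38.7 to 45.2 CPM for the 4 endothelial genes. For the 4 epithelial genes they were 0.207 to 0.877 and 23.4 to 35.0 CPM. For the 3 leukocyte genes they were 1.17 to 2.07 and 4.72 to 11.1 CPM, and *CD3E* was at 0 in all libraries. The part of these markers in the results was not tested. All libraries came from 1 line, so the lists name genes and not cells of those types. In bulk RNA, fewer cells that express a gene and less RNA per cell cannot be told apart.

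Among the 9 members that passed the expression filter, *COL14A1* and *COL21A1* rose strongly, *COL6A3* and *COL6A1* fell by less than 2-fold, and *COL12A1* rose slightly. The first 2 kept this under every scaling, whereas under *GAPDH* scaling *COL6A1* was at 0.12 on the log2 scale and *COL6A3* no longer passed (adjusted p = 0.052 by edgeR), and *COL12A1* did not pass with DESeq2, without a filter, or with some samples left out. The other 4 tested members, *COL6A2*, *COL9A2*, *COL9A3*, and *COL16A1*, did not pass the test, and *COL9A1* was too low to be tested. Here, rose and fell mean an adjusted p under 0.05 by the quasi-likelihood test of edgeR, with Benjamini-Hochberg adjustment over the 13966 genes tested. A gene was called upregulated (URG) or downregulated (DRG) when its absolute log2 fold change also exceeded 1. With these thresholds 2 members were URGs, where 20.2% of all genes tested were, and 0 were DRGs, where 8.18% were. At an adjusted p under 0.05 without a fold limit, 3 members were higher and 2 lower, against 32.9% and 31.4% of all genes tested, so that the 5 of 9 are near the 64.3% of all genes that changed in either direction. The unadjusted p was under 0.05 for the same 5 members, and DESeq2 also called 0 members downregulated. The CPM of the conditions did not overlap for these 5 members, where 66.5% of all genes tested did not overlap. The median log2 fold change was 0.19 over the 9 members and -0.0021 over all genes tested. *COL14A1* and *COL21A1* passed the filter through the mocetinostat-treated samples, so the counts of members describe them and test nothing.

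**Figure D1:**
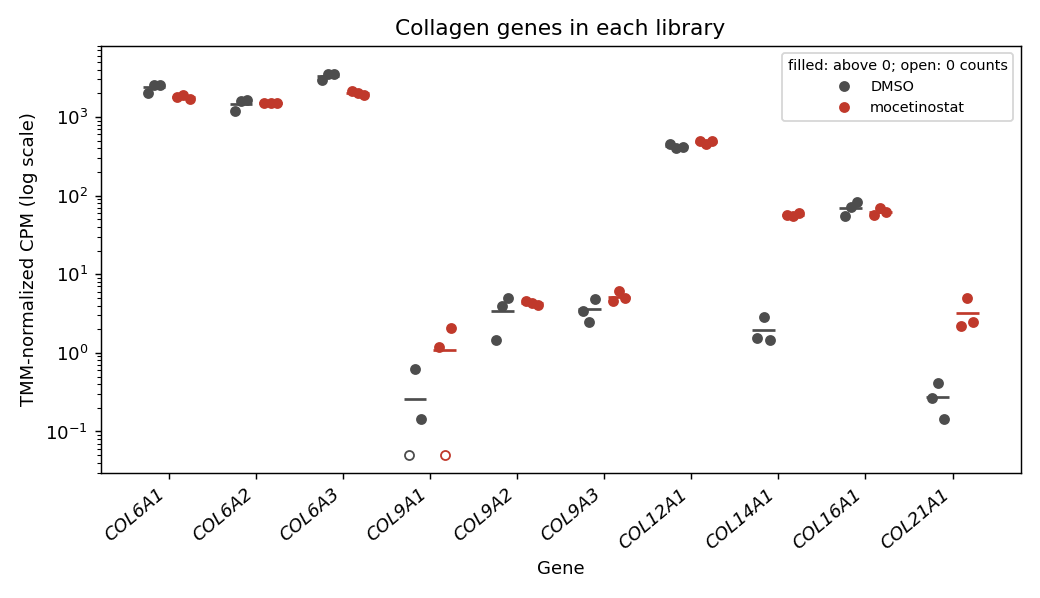
TMM-normalized CPM (log scale) of the 10 collagen genes in each library, with DMSO in grey and mocetinostat in red, horizontal lines at the mean of 3 samples, and open symbols at the bottom for libraries with 0 counts. The 3 type VI genes lie above the other members in every library, and *COL14A1* moves from between 1.46 and 2.89 CPM to between 54.7 and 59.6 CPM.

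*COL6A3* encodes the α3 chain, the longest of the type VI chains (ENSG00000163359, chromosome 2 of GRCh38 from 237324003 to 237414328, minus strand). The DMSO samples gave 32665, 17059, and 23734 reads for it, or 2932, 3524, and 3470 CPM. The mocetinostat samples gave 10720, 3300, and 4681 reads, or 2108, 2029, and 1925 CPM. Every mocetinostat-treated sample lay below every DMSO-treated sample. Its log2 fold change was -0.71 (SE 0.06, edgeR adjusted p = 1.4e-16). It stayed negative in all 15 alternatives, between -0.96 and -0.19, and the value closest to 0 came from scaling each library to its *GAPDH* count, where the adjusted p was 0.052.

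*COL6A1*, which encodes the α1 chain (ENSG00000142156, chromosome 21 from 45981770 to 46005050, plus strand), had 2026, 2573, and 2542 CPM in the DMSO samples and 1786, 1894, and 1711 CPM in the mocetinostat samples. The conditions did not overlap, although DMSO replicate 1 was the lowest of its group and nearest to the treated samples. This gave a log2 fold change of -0.41 (SE 0.07, edgeR adjusted p = 1.61e-07), and -0.53 without DMSO replicate 1. The direction depended on the scaling, since *COL6A1* came to 0.12 (adjusted p = 0.243) under *GAPDH* scaling, where the median of all genes shifted by 0.54 on the log2 scale. *GAPDH*, a glycolytic enzyme gene, itself had a log2 fold change of -0.53 under TMM scaling.

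*COL6A2*, which encodes the α2 chain, lies 93.1 kb from *COL6A1* in the same orientation (ENSG00000142173, chromosome 21 from 46098112 to 46132848, plus strand). Its level was 1176, 1580, and 1643 CPM in the DMSO samples and 1509, 1506, and 1523 CPM in the mocetinostat samples. The treated samples fell within the range of the DMSO-treated samples, whose spread came from DMSO replicate 1. The difference was 0.05 on the log2 scale (95% interval from -0.10 to 0.19, adjusted p = 0.589 by edgeR). Without DMSO replicate 1 it was -0.11 (adjusted p = 0.0475), and under *GAPDH* scaling it was 0.57 (adjusted p = 1.81e-06).

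**Figure D2:**
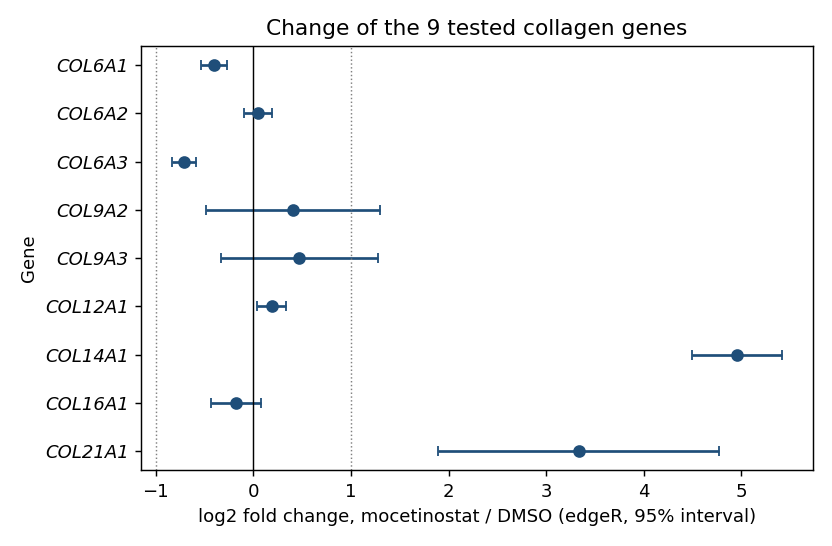
Log2 fold changes of the 9 tested members (mocetinostat over DMSO, TMM scaling) with 95% intervals from edgeR; the solid line marks 0 and the dotted lines mark -1 and 1. *COL14A1* at 4.96 and *COL21A1* at 3.33 lie beyond 1, and the intervals of *COL6A1* and *COL6A3* lie between -1 and 0, although *COL6A1* turned to 0.12 under *GAPDH* scaling.

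Ratios of counts within a library need no scaling between libraries and were computed for 4 pairs of chains. The count of *COL6A1* relative to *COL6A2* was 1.72, 1.63, and 1.55 in the DMSO samples and 1.18, 1.26, and 1.12 in the mocetinostat samples. All treated samples lay below all DMSO-treated samples, with a difference in the mean log2 ratio of -0.46 (from 0.71 ± 0.08 to 0.25 ± 0.08, SD, n = 3; exact two-sided permutation p = 0.1, adjusted p = 0.2 over the 4 pairs). The count of *COL6A3* relative to *COL6A1* was 1.45, 1.37, and 1.37 with DMSO and 1.18, 1.07, and 1.12 with mocetinostat, in the order of replicates 1, 2, and 3. These samples did not overlap either, with a difference of -0.31 in the mean log2 ratio (exact two-sided permutation p = 0.1, adjusted p = 0.2). With 3 samples against 3, 0.1 is the smallest p this test can give. Leaving out each sample in turn gave differences from -0.50 to -0.42 for *COL6A1* to *COL6A2* and from -0.34 to -0.27 for *COL6A3* to *COL6A1*.

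**Figure D3:**
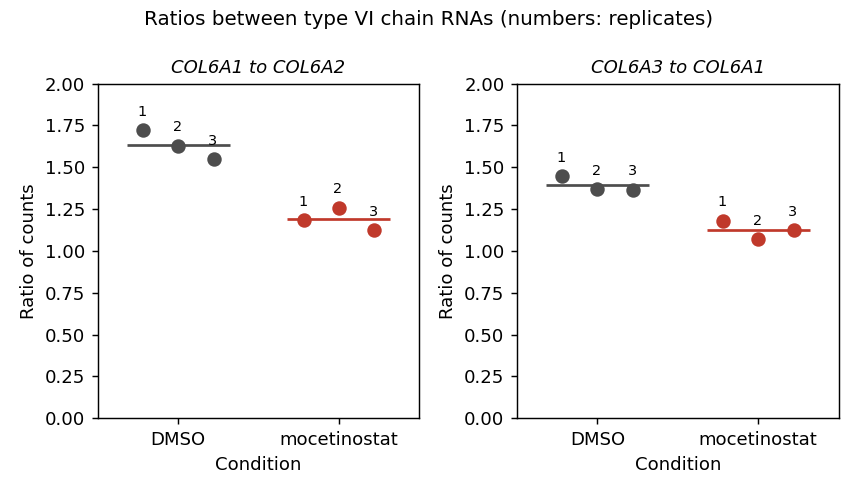
Ratio of counts of *COL6A1* to *COL6A2* (left) and of *COL6A3* to *COL6A1* (right) in each library, on linear axes from 0, with replicate numbers beside the points and lines at the mean of 3 samples. Both ratios are lower in the 3 mocetinostat-treated samples, from 1.12 to 1.26 on the left and from 1.07 to 1.18 on the right.

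Levels were compared between genes per kb of the canonical transcript. Of the summed type VI level per kb with DMSO, *COL6A1* held 43.4% ± 0.474, *COL6A2* 32.5% ± 1.41, and *COL6A3* 24.1% ± 0.999 (SD, n = 3). With mocetinostat the shares were 40.4% ± 1.18, 41.5% ± 1.22, and 18.1% ± 0.614 (SD, n = 3), so that *COL6A2* held the larger share and *COL6A3* the smaller in every treated sample than in any DMSO-treated sample. The levels per kb of *COL6A1* and *COL6A2* did not overlap with DMSO but did with mocetinostat. Which of them was higher after treatment depended on the length used, since with all annotated exons as the length the shares with mocetinostat were 46.2% and 40.4%. In both conditions the 3 type VI genes had the highest levels of the members, above 98.3% to 99.4% of the 13937 tested genes with an annotated length, with *COL6A1* at 566 ± 73.0 CPM per kb with DMSO (SD, n = 3).

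The tested genes outside the members whose values were most like those of *COL6A3* over the 6 samples were *HIPK2*, *SF3A1*, and *ZNF335*, with root mean square differences of 0.020, 0.022, and 0.027 in centred log2 CPM. For *COL6A1* they were *TACC2*, *GAK*, and *PDPK1* (0.031, 0.038, and 0.045), and for *COL6A2* *EPN1*, *FBXW5*, and *CDC37* (0.036, 0.039, and 0.048). The closeness rests on 6 libraries in 2 conditions.

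Among the FACIT genes, *COL14A1* had the largest log2 fold change of the members. It encodes type XIV collagen, a FACIT of tissues rich in type I collagen (ENSG00000187955, chromosome 8 from 120059780 to 120373573, plus strand). The DMSO samples gave 17, 14, and 10 reads for it, or 1.53, 2.89, and 1.46 CPM. The mocetinostat samples gave 289, 89, and 145 reads, or 56.8, 54.7, and 59.6 CPM. Raw counts were higher in every treated sample although the treated libraries had a smaller median total. Its log2 fold change was 4.96 (SE 0.23, edgeR adjusted p = 9.38e-31), a 31.1-fold difference, and it lay between 4.70 and 5.50 in the 15 alternatives. Per kb, *COL14A1* moved from below *COL9A2* to above *COL9A3* among the members, with 0.245 ± 0.101 CPM per kb with DMSO and 7.12 ± 0.307 CPM per kb with mocetinostat (SD, n = 3). It stayed below *COL16A1* and *COL12A1* in both conditions.

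*COL21A1*, which encodes type XXI collagen (ENSG00000124749, chromosome 6 from 56056590 to 56394094, minus strand), received 3, 2, and 1 reads in the DMSO samples and 11, 8, and 6 reads in the mocetinostat samples. These were 0.269, 0.413, and 0.146 CPM with DMSO and 2.16, 4.92, and 2.47 CPM with mocetinostat, without overlap. On the log2 scale the fold change was 3.33 (SE 0.72, edgeR adjusted p = 4.52e-05). Over summed counts, 6 with DMSO and 25 with mocetinostat, the ratio of rates was 10.4 with a 95% interval from 4.16 to 31.0 that covers counting error only. Even after treatment its level was 0.763 ± 0.362 CPM per kb (SD, n = 3), above 3.15% of the tested genes. It could not be tested with a minimum of 10 counts per sample, or with libraries thinned to the total of the smallest.

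*COL12A1* encodes type XII collagen, which binds to the surface of type I collagen fibrils (ENSG00000111799, chromosome 6 from 75084326 to 75206267, minus strand). Its level was 448, 406, and 420 CPM in the DMSO samples and 497, 459, and 495 CPM in the mocetinostat samples. The lowest treated sample exceeded the highest DMSO-treated sample by a small margin. The log2 fold change was 0.19 (SE 0.07, edgeR adjusted p = 0.0213). The adjusted p was 0.0634 with DESeq2 and from 0.0022 to 0.227 with each sample left out in turn. It exceeded 0.05 without DMSO replicate 2 (0.227) or 3 (0.0696) and without mocetinostat replicate 1 (0.135) or 3 (0.113), and without an expression filter the log2 fold change was -0.064.

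*COL16A1*, the gene of type XVI collagen (ENSG00000084636, chromosome 1 from 31652263 to 31704319, minus strand), had 55.6, 71.3, and 83.5 CPM in the DMSO samples and 56.6, 70.1, and 61.3 CPM in the mocetinostat samples. The conditions overlapped. The difference was -0.18 on the log2 scale (95% interval from -0.44 to 0.08, adjusted p = 0.233 by edgeR). It was -0.36 without DMSO replicate 1 (adjusted p = 0.0073) and 0.35 under *GAPDH* scaling (adjusted p = 0.028). Of its exon bases, 1.26% also lie in exons of *PEF1-AS1* on the other strand, and whether the counting used strand is not given in the sources used here.

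The type IX genes were near the lower limit of what these libraries measure. *COL9A2* (ENSG00000049089, chromosome 1 from 40300489 to 40317813, minus strand) received 16, 19, and 34 reads in the DMSO samples and 23, 7, and 10 in the mocetinostat samples. *COL9A3* (ENSG00000092758, chromosome 20 from 62816244 to 62841159, plus strand) received 38, 12, and 33 reads in the DMSO samples and 23, 10, and 12 in the mocetinostat samples. *COL9A1* (ENSG00000112280, chromosome 6 from 70216040 to 70303084, minus strand) received 0, 3, and 1 reads in the DMSO samples and 6, 0, and 5 in the mocetinostat samples, and the expression filter removed it. In normalized values the conditions overlapped for each of the 3 genes.

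The log2 fold change of *COL9A2* was 0.41 (95% interval from -0.48 to 1.30, adjusted p = 0.435 by edgeR), and that of *COL9A3* was 0.47 (95% interval from -0.33 to 1.27, adjusted p = 0.309). Both intervals include 0 and upward differences of more than 2-fold. Under *GAPDH* scaling *COL9A3* reached 1.01 (adjusted p = 0.027), and without DMSO replicate 1 the value of *COL9A2* was -0.066. Of the exon bases of *COL9A3*, 3.20% also lie in exons of *TCFL5* on the other strand. For *COL9A1* the ratio of rates over 4 and 11 summed counts was 6.86, with a 95% counting interval from 2.03 to 29.6, and the adjusted p was 0.241 in edgeR without the filter and 0.271 with DESeq2. Its 0 counts in DMSO replicate 1 and in mocetinostat replicate 2 allow levels of up to 0.269 and 1.84 CPM, where 3 counts set the limit. The log2 ratio of *COL9A3* to *COL9A2* was 0.18 ± 0.95 with DMSO and 0.25 ± 0.24 with mocetinostat (SD, n = 3; exact two-sided permutation p = 0.9). That of *COL9A1* to *COL9A2* was -4.02 ± 1.36 and -2.23 ± 1.52 (SD, n = 3; exact two-sided permutation p = 0.2).

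Per kb, the order of the members with DMSO was *COL6A1*, *COL6A2*, *COL6A3*, *COL12A1*, *COL16A1*, *COL9A3*, *COL9A2*, *COL14A1*, *COL9A1*, and *COL21A1*. Neighbours in this order overlapped between samples only for *COL9A3* with *COL9A2* and for *COL9A1* with *COL21A1*. With mocetinostat the order was *COL6A2*, *COL6A1*, *COL6A3*, *COL12A1*, *COL16A1*, *COL14A1*, *COL9A3*, *COL9A2*, *COL21A1*, and *COL9A1*, where *COL6A2* with *COL6A1* and *COL21A1* with *COL9A1* overlapped.

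**Figure D4:**
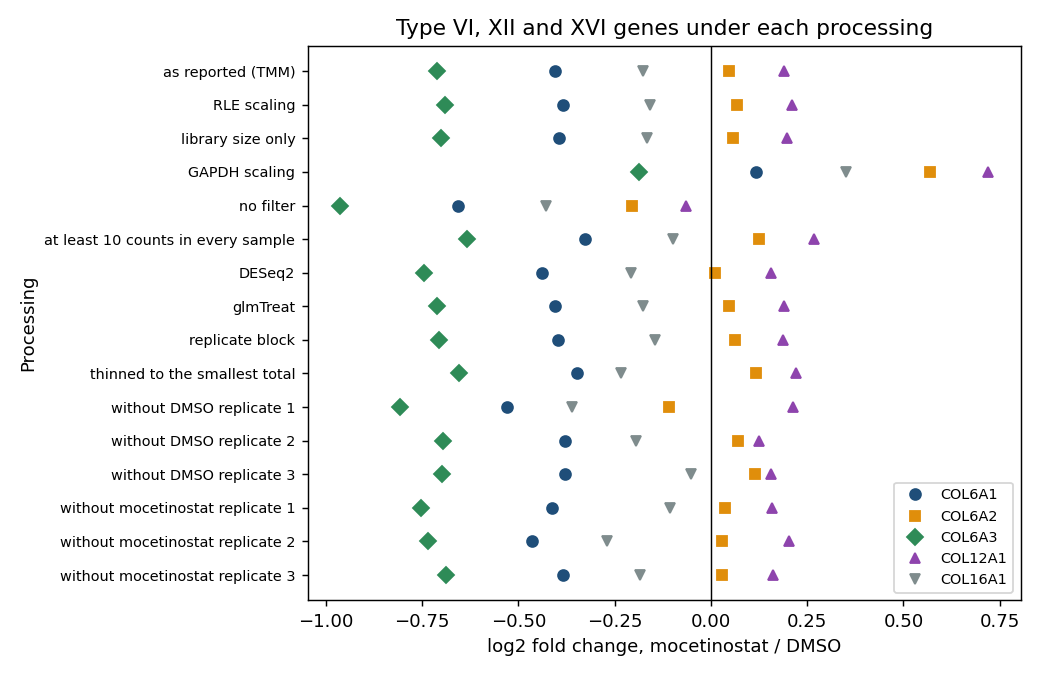
Log2 fold changes (mocetinostat over DMSO) of 5 members, 1 symbol per gene, with the processing on the vertical axis. *COL6A3* stays below 0 throughout, *COL6A1* is above 0 only under *GAPDH* scaling, and *COL6A2* and *COL12A1* fall below 0 without a filter, *COL6A2* also without DMSO replicate 1.

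The other genes of type VI and FACIT assembly were counted from lists. Over all genes tested, 32.9% were higher and 31.4% lower without a fold limit, and the median log2 fold change was -0.0021. The remaining type VI and FACIT chains, among them *COL6A5*, *COL6A6*, *COL19A1*, and *COL22A1*, comprised 7 genes that held between 0 and 15 counts in any library, and none passed the expression filter.

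Of 9 fibrillar collagen genes, whose products form the fibrils that carry FACITs, 8 were tested. Of these, 3 were URGs and 1 was a DRG, against 20.2% and 8.18% of all genes tested. Without a fold limit 5 were higher and 3 lower, with a median log2 fold change of 0.75. Among the URGs, *COL1A2* and *COL2A1* passed the expression filter through the mocetinostat-treated samples. *COL2A1*, which encodes the type II fibril partner of type IX collagen, had a log2 fold change of 3.70 (SE 0.27) and went from 2.19 ± 0.678 to 28.5 ± 7.48 CPM (SD, n = 3). The log2 fold change of *COL1A2* was 1.73 (SE 0.37), from 2.49 ± 0.880 to 8.71 ± 2.49 CPM (SD, n = 3), and that of *COL1A1*, the far more abundant type I chain gene, was -0.21 (SE 0.06) and 0.31 under *GAPDH* scaling. *COL1A1* went from 4508 ± 479 to 3901 ± 192 CPM (SD, n = 3). Among the type V chain genes, *COL5A2* had a log2 fold change of -0.54 (SE 0.07), and -0.011 under *GAPDH* scaling (adjusted p = 0.922 by edgeR), whereas *COL5A1* had 0.86 (SE 0.07) and *COL5A3* 0.63 (SE 0.09). Under *GAPDH* scaling *COL5A1* was at 1.38 and *COL5A3* at 1.16, and both were called upregulated there. That of *COL3A1* (type III) was -1.35 (SE 0.08). *COL3A1* was at -0.82 under *GAPDH* scaling and lost its call there.

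All 10 collagen receptor genes were tested, with 3 URGs and 1 DRG, against 20.2% and 8.18% of all genes tested. Without a fold limit 5 were higher and 1 lower, with a median log2 fold change of 0.26. *ITGA1* and *ITGA2*, which encode integrin subunits that pair with β1 to bind collagen, went from 7.70 ± 1.13 to 44.04 ± 6.74 CPM and from 29.2 ± 2.16 to 127.8 ± 10.9 CPM (SD, n = 3). Their log2 fold changes were 2.47 (SE 0.19) and 2.14 (SE 0.12). *ITGA11*, which encodes another such subunit, had -0.16 (SE 0.10, edgeR adjusted p = 0.173), and 0.37 under *GAPDH* scaling. *DDR2*, a receptor tyrosine kinase for fibrillar collagen, had a log2 fold change of -1.02 (SE 0.13), just past the threshold. It lost its call in 6 alternatives, among them without DMSO replicate 1 (-0.95) and without mocetinostat replicate 1 (-0.97). *ANTXR1*, an anthrax toxin receptor that binds type VI collagen, had one of -0.19 (adjusted p = 0.0701 by edgeR), which was 0.34 under *GAPDH* scaling.

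Of 12 matrix partners, 8 were tested, with 5 URGs and 0 DRGs, against 20.2% and 8.18% of all genes tested. Without a fold limit 5 were higher and 2 lower, with a median of 1.36. *COMP*, which binds type IX collagen, had a log2 fold change of 3.64 (SE 0.57) and *LUM* (lumican) one of 2.71 (SE 0.34), both from low levels. Both passed the expression filter through the mocetinostat-treated samples, as did the URGs *MATN3* and *TNXB*. *BGN*, which encodes biglycan, a small proteoglycan that binds type VI collagen, went from 149.5 ± 7.32 to 90.5 ± 9.76 CPM (SD, n = 3; log2 fold change -0.74), and under *GAPDH* scaling it was at -0.20 (adjusted p = 0.101 by edgeR). *TNC*, which encodes tenascin C, had -0.32 (SE 0.06), and 0.20 under *GAPDH* scaling.

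Of the 14 genes for collagen folding, modification, and secretion, all were tested. There were 2 URGs and 1 DRG, against 20.2% and 8.18% of all genes tested. Without a fold limit 4 were higher and 3 lower, with a median of 0.079. *SERPINH1*, the collagen chaperone HSP47, had a log2 fold change of -2.66 (SE 0.11) and went from 208.3 ± 6.12 to 32.2 ± 3.26 CPM (SD, n = 3). *PLOD3*, a lysyl hydroxylase, had one of -0.97 (SE 0.10) and was called downregulated with DESeq2 (-1.007), without a filter (-1.22), without DMSO replicate 1 (-1.04), and without mocetinostat replicate 3 (-1.002). *P4HA3*, a prolyl hydroxylase subunit, had 1.87 (SE 0.31), and *LOX*, the crosslinking lysyl oxidase, 1.24 (SE 0.15). *LOX* lost its call without a filter (0.99) and with glmTreat (adjusted p = 0.0873). The lists were chosen with earlier results of these data known and are not independent evidence of a direction. Some listed genes that were low with DMSO passed the filter through the mocetinostat-treated samples, and their upward calls test nothing.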

How the data were processed

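RNA-Seq was measured in 6 samples of TC28a2 cells. The authors deposited 1 table of raw counts of reads per gene, without normalization. Per the study's methods and the submitters' processing notes, single reads were trimmed, ribosomal RNA reads were removed, and the rest were aligned to GRCh38 with STAR (2.6.1d) and counted with featureCounts (1.6.4); strand settings are not given in the sources used here. All 6 columns matched samples by name.

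The counts were tested with edgeR 4.0.16 (limma 3.58.1, R 4.3.3): TMM factors, filterByExpr with a minimum count of 10 (13966 genes kept), treatment as the only term, and the quasi-likelihood test with Benjamini-Hochberg adjustment. CPM were divided by total counts times TMM factors. Ratios used a pseudocount of 0.5 counts and exact permutation tests (scipy 1.17.1). Standard errors were derived from the quasi-likelihood statistic. Positions and lengths are from GENCODE on GRCh38, which held 99.5% of the genes. On simulated counts of this comparison with 200 changed genes, edgeR recovered 99.0% over 14016 genes and DESeq2 96.0% over 37528 genes. The changed genes were drawn only from those with at least 10 expected counts in the smallest library. The type IX genes and *COL21A1* are below that limit, so the recovery does not describe them. Recovery of changes as small as those of *COL6A1*, *COL6A3*, and *COL12A1* was not tested separately. In the data, 64.3% of the genes tested passed an adjusted p under 0.05 by edgeR. Recovery with so large a part of the genes changed was not tested.

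The named genes were all members, the 2 highest and 2 lowest log2 fold changes of each pathway list, the 3 genes most like each of the 3 most abundant members, and *GAPDH* where scaling used it. *COL1A1*, *COL5A1*, *COL5A3*, *ITGA10*, *ITGA11*, *MATN3*, *TNXB*, *CNMD*, *CD3E*, *SOX5*, *SOX9*, *PDGFRA*, *CDH1*, *VWF*, *CDH5*, and *PTPRC* were named after their values were seen. The same holds for the untested chains and the genes covering members on the opposite strand. Members and lists were chosen with earlier results of these data known. The statistic of a chi-square test per degree of freedom was 1.93 to 7.95 between replicates, more than sampling noise, so each sample counted once. Alternatives were DESeq2 1.42.0, 3 other scalings, 2 other filters, glmTreat, a replicate block, thinning, and each sample left out. Intervals and limits cover counting error only where so stated. The study's methods name no molecular identifiers, so repeated copies of a molecule may have been counted and such intervals may be too narrow.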

Additional observations from a re-analysis of the deposited data

How the results depend on the processing

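Under the 15 alternatives, *COL14A1* was called upregulated in each, and 0 members were called downregulated. The number of upregulated members was 1 with at least 10 counts in every sample and 1 after thinning, where *COL21A1* was not tested, 3 under *GAPDH* scaling, where *COL9A3* was added, and 2 otherwise. At an adjusted p under 0.05, between 4 and 7 members passed with each sample left out, and 2 under glmTreat, which tests against a log2 fold change of 1. Over all genes, 2827 URGs and 1142 DRGs (71.2% upward) became 4425 and 284 under *GAPDH* scaling (94.0%), 3201 and 2120 without a filter (60.2%), 1620 and 704 when each sample had to hold 10 counts, and 2069 and 465 with glmTreat (81.6%); leaving out samples gave 2842 to 3215 and 1173 to 1267. Without a filter the median of the genes shifted by -0.25 on the log2 scale. Signs turned under *GAPDH* scaling for *COL6A1* (0.12), *COL16A1* (0.35), *ANTXR1* (0.34), *TNC* (0.20), *COL1A1* (0.31), and *ITGA11* (0.37), and without a filter for *COL6A2* (-0.21) and *COL12A1* (-0.064); beyond the scaling itself, the cause was not tested. With each sample left out, *COL6A2* lay between -0.11 and 0.11, *COL9A2* between -0.066 and 0.80, and the difference in the log2 ratio of *COL9A3* to *COL9A2* between -0.34 and 0.59. Of 427 values of single genes under alternatives, 401 kept their direction and their call. Deviations from the group means gave no sign of pairing by replicate number, with correlations of same-numbered samples between -0.02 and 0.01. Not every sample correlated best with its own number. Noise of low counts lowers such correlations, so they cannot show that the experiments were unpaired. With a replicate block, 2798 URGs, 1133 DRGs, and 2 upregulated members were called. Low counts limit what can be said of the type IX genes and *COL21A1*.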

Other observations

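The nearest tested genes on either side of the members were looked up in the annotation after the members' values had been seen, and 18 different genes were found. Of these, 3 were upregulated, 1 was downregulated, and their log2 fold changes ran from -1.005 to 2.54 with a median of -0.08, where 20.2% and 8.18% of all genes tested were called upward and downward. *PCBP3*, which encodes an RNA-binding protein, lies 39.3 kb from *COL6A1* and was at 2.54 on the log2 fold change scale (standard error 0.24), whereas *COL6A1* was at -0.41. *DEPTOR*, which encodes an inhibitor of mTOR, lies 8.86 kb from *COL14A1* and had 2.23 (standard error 0.45), and *MRPL13* on its other side, at 7.19 kb, had -0.46 (standard error 0.14). The neighbours of *COL16A1* went opposite ways, with -1.005 for *PEF1* (standard error 0.15) and 1.87 for *ADGRB2* (standard error 0.15). The neighbours of *COL21A1*, *BMP5* and *DST*, had 0.27 (standard error 0.32) and -7.6e-05 (standard error 0.07). These values are given without an explanation.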
